A study of Drosophila melanogaster with 6 samples.

Results

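The genes described here encode the proteins of the cytosolic ribosome of Drosophila melanogaster. They are the 92 of the 17611 genes in the count table whose symbol begins with RpL (large subunit) or RpS (small subunit), followed by a digit or by P. The proteins of the mitochondrial ribosome (mRpL and mRpS) are not among them. The large subunit has 54 of these genes and the small subunit 38. A gene is called core here if its symbol does not end in -like and, where 2 symbols differ only by a final letter a or b, if it has the larger summed count over all samples. This left 78 core genes, 47 of the large and 31 of the small subunit, and 14 further paralogs.

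RNA-seq was done on indirect flight muscles (IFM) of pupae staged at 25°C, at 72 hours after puparium formation (APF). Both groups carried Act88F-Gal4, which drives transgenes in flight muscle from the promoter of a flight muscle actin gene. Controls expressed UAS-GFP (genotype Act88F-Gal4;UAS-GFPnls in the labels) and the others UAS-Antp (Act88F-Gal4;UAS-Antpnls), which supplies the Hox protein Antennapedia, with 3 samples per group. Muscles of 6 to 8 pupae were pooled in a sample. The labels call the samples replicates, but for RNA-seq the methods speak of 3 technical replicates and 1 biological replicate. P values and SDs therefore measure only the spread between these samples. The UAS-Antp samples are named by their numbers in the count table (1 to 3), which differ from those in the labels (4 to 6).

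A eukaryotic ribosome holds a single copy of nearly every one of its proteins, with the acidic stalk proteins as the exception. Their genes are therefore usually expressed together and in step, and in flies many of them share an initiator of pyrimidines at the start site. Loss of a copy of many of these genes gives the Minute phenotype of slow growth and thin bristles. Several have a second gene copy in the fly genome, and some of these copies are known for expression in the germ line. Growing muscle builds its sarcomeres with these ribosomes, while the mitochondrial ribosome makes a few subunits of the respiratory chain.

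The controls had library totals of 47460809 to 64485309 counts, the UAS-Antp samples of 63217976 to 77781458. Counts of Antp itself were 70, 33 and 66 in the controls against 716673, 1092524 and 517985 under UAS-Antp. All 9 flight muscle markers examined (Act88F, fln, TpnC4 and others) were above a floor of 3 counts in all 6 samples. Their summed level was 343407 to 387060 counts per 1000000 (CPM) with UAS-GFP and 53591 to 64206 CPM with UAS-Antp, after scaling by edgeR's TMM method. Summed tracheal markers (trh, btl, verm, serp; all 4 above the floor in every sample) were at 657 to 706 CPM against 143 to 214 CPM. Of tendon and epidermis, all 4 markers (sr, Tsp, grh, ovo) were above the floor. Their sum was 30.9, 30.8 and 23.9 CPM against 9.90, 17.4 and 21.2 CPM. With TMM scaling, sr, Tsp and grh were lower (log2 fold changes -0.63, -1.17 and -0.78) and ovo higher (1.85). Of myoblasts, 2 or 3 markers (twi, Him, zfh1) were above the floor. Their sum was 33.1, 31.1 and 30.9 CPM against 23.0, 19.5 and 18.5 CPM. Most of it was zfh1 (log2 fold change -0.64). Him had 16, 23 and 24 counts against 8, 48 and 38, and twi 0, 0 and 0 against 0, 16 and 12. Summed hemocyte markers (Hml, NimC1, eater and srp, all 4 above the floor) stood apart in UAS-Antp 1, at 41.0 CPM against 10.4 to 17.6 CPM elsewhere. There eater, srp and NimC1 had their highest counts (2490, 1495 and 192), whereas Hml had 206, against 316 in UAS-Antp 3. Summed fat body markers were at 254, 333 and 453 CPM against 310, 457 and 498 CPM, with overlap between the groups. With TMM scaling, Fbp1 and apolpp were higher (log2 fold changes 1.07 and 0.99) and Lsp1alpha, Lsp1beta and Lsp2 lower (-0.72, -0.56 and -0.022). Summed neuron markers were at 53.6, 53.5 and 46.3 CPM against 71.9, 51.8 and 45.8 CPM. These levels moved with the group or with a sample, and their part in the results below was not tested. In bulk tissue, fewer cells of a type and less RNA per cell cannot be told apart.

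With TMM scaling nearly all ribosomal protein genes had lower counts with UAS-Antp, and by much the same factor, whereas with library totals most had slightly higher ones. The median core gene stood at 833, 852 and 928 CPM in the controls and at 393, 359 and 400 CPM under UAS-Antp. Of the 84 members with enough counts for the test, 79 were lower and 0 higher in edgeR's quasi-likelihood test with TMM scaling, at the study's threshold of 0.001 after Benjamini-Hochberg adjustment, whereas scaled by library totals 0 were lower and 3 higher. Over all 9546 genes tested, 35.6% passed with TMM scaling, 19.3% lower and 16.3% higher. With library totals, 7.18% of all genes were lower and 52.1% higher.

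No member had even an unadjusted P under 0.05 in the higher direction with TMM scaling, and DESeq2's own test called 0 higher too, against 17.8% of all genes it tested. The 5 that did not pass were RpL11, RpS15Ab, RpL24-like, RpLP0-like and RpL7-like, with adjusted P of 0.00124, 0.00271, 0.00142, 0.00112 and 0.150. In TMM-scaled CPM, all 84 had their highest UAS-Antp sample below their lowest UAS-GFP sample. The same was true of 30.6% of all genes tested. With each sample left out in turn, 70 to 81 members passed as lower, and 83 had an adjusted P under 0.05 in every one of these fits. RpL21, RpLP2 and RpS14b lost their call without any sample other than UAS-GFP 1, and RpS30 without any other than UAS-GFP 2. RpL9 and RpL36 lost theirs without UAS-GFP 2, UAS-GFP 3, UAS-Antp 1 or UAS-Antp 2, and RpS29 without UAS-GFP 3 or any UAS-Antp sample. RpS19a and RpS5a lost theirs without UAS-GFP 3, and RpLP1 without UAS-Antp 1.

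The log2 fold changes of the 78 core genes lay close together. With TMM scaling their median was -1.12, their interquartile range ran from -1.26 to -0.98 and their full range from -1.71 (RpS21) to -0.75 (RpL11). Their SD was 0.19, and the standard error (SE) of a single gene was 0.096 to 0.20. Over all tested genes the SD was 2.26 and the interquartile range ran from -0.77 to 1.01. Those include genes with far fewer counts than any core gene, and no set matched for abundance was compared. The median of all tested genes was 0.17, and 19.4% of them lay below the core median.

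The direction depended on the scaling between libraries. Scaled by library totals, the median of all genes moved by 1.32, to 1.48, and that of the core genes to 0.21, with 66 core genes above 0 and 12 below. Core genes thus lay 1.28 below the median gene on the log2 scale with TMM scaling, and a like distance below it with totals. Other scalings gave counts of calls close to that with TMM, as 82 members passed as lower with the size factors of DESeq2 (20.3% of all genes), 80 with TMM factors computed without the members (19.6%) and 78 with the upper quartile (18.7%).

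**Figure D1:**
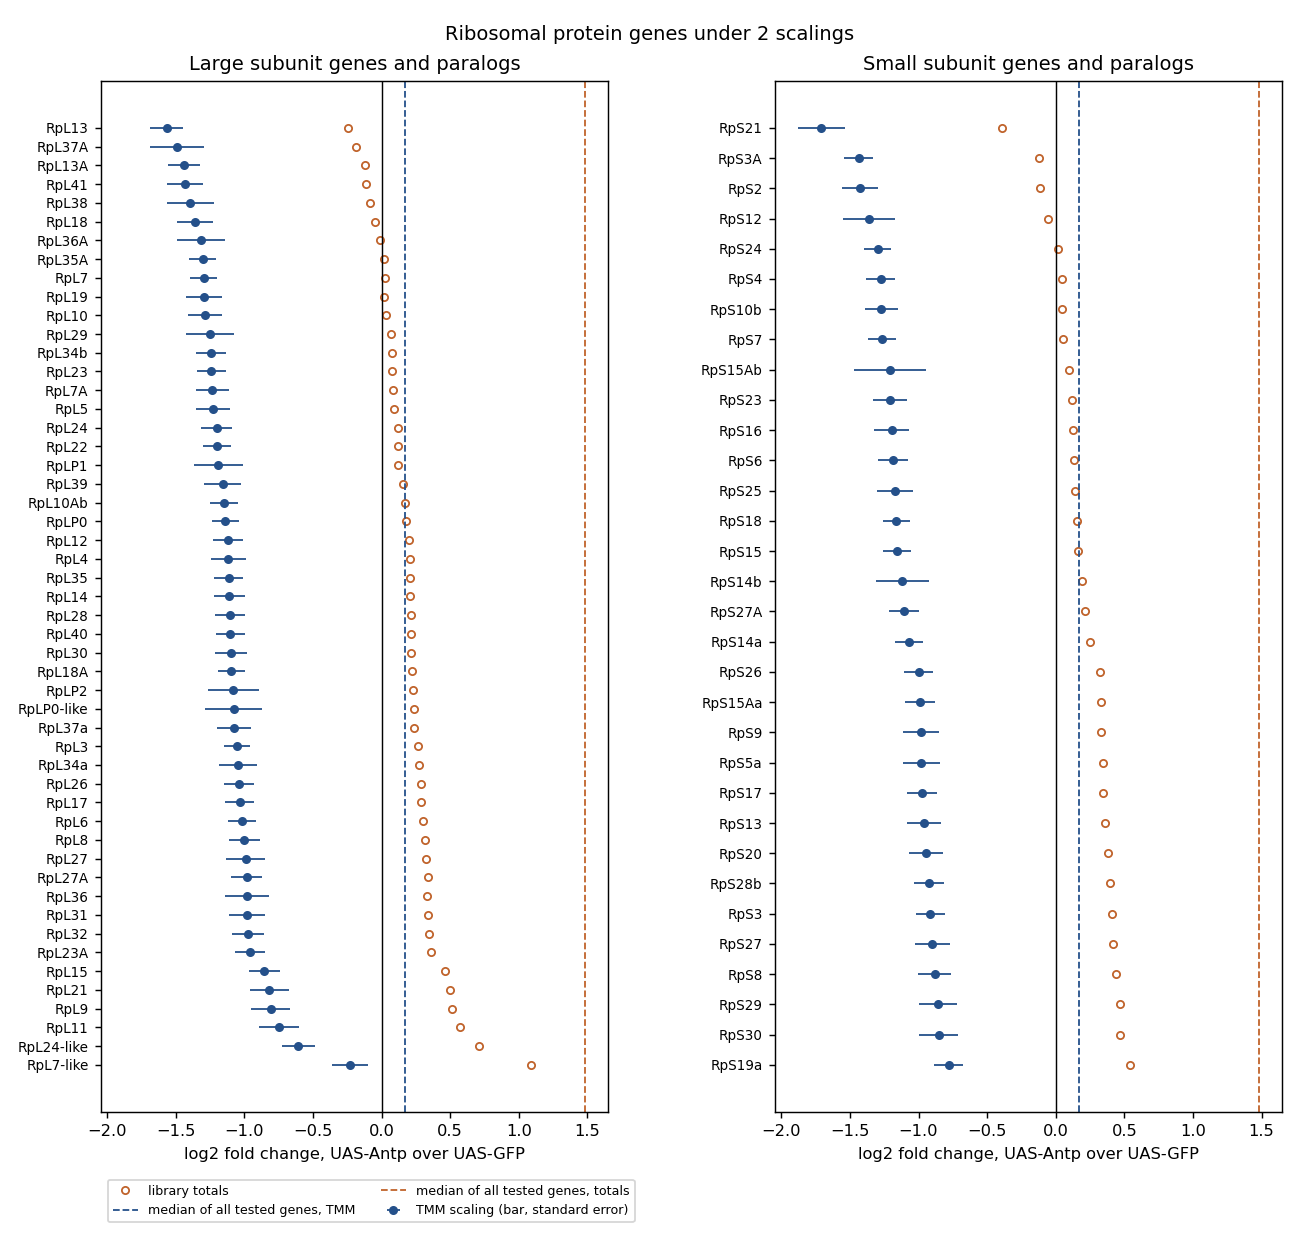
Log2 fold change (x axis, UAS-Antp over UAS-GFP) of the tested large and small subunit genes shown (rows), with TMM scaling (filled points, bars are standard errors) and with library totals (open points). The TMM points all lie below 0 while most open points lie above it, and under either scaling every member shown lies to the left of the dashed line of the same colour, the median of all tested genes.

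**Figure D2:**
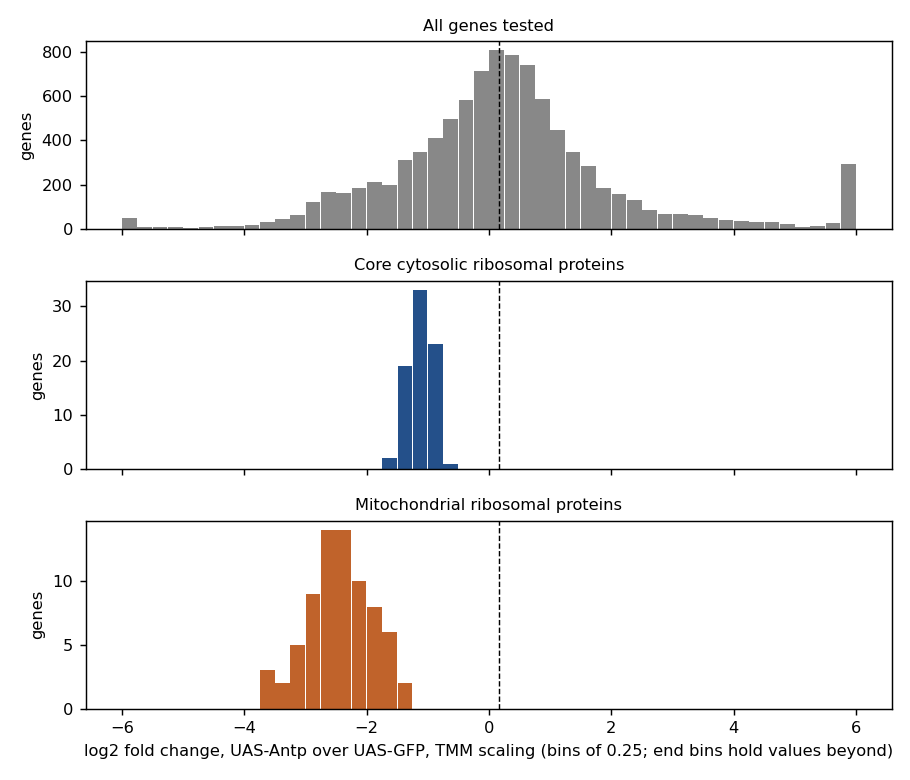
Number of genes (y axis) by log2 fold change with TMM scaling (x axis, bins of 0.25) for all tested genes, the core cytosolic ribosomal protein genes and the mitochondrial ribosomal protein genes, with the median of all genes (0.17) as a dashed line. The 78 core genes form a narrow peak around -1.12 and the mitochondrial ones a broader peak around -2.47, both left of the line; with library totals the core median is 0.21 and that of all genes 1.48.

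The share of all counts that fell on the core genes rests on the library totals, as the scaling by totals does. It was 4.54%, 5.15% and 5.08% in the controls and 5.50%, 5.60% and 6.20% under UAS-Antp. The groups did not overlap, and the UAS-Antp share was higher, at 5.77% ± 0.379 (SD, n = 3) against 4.92% ± 0.331 (SD, n = 3), a ratio of 1.17.

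The 50 most abundant other genes took 49.4% of the counts in the controls and 30.6% under UAS-Antp. With those 50 set aside from the total, the order of the groups turned. The core share was then 9.11%, 9.93% and 10.1% in the controls and 7.97%, 8.08% and 8.88% under UAS-Antp, again without overlap. The core genes thus held more of all counts with UAS-Antp, and less of the counts outside the most abundant transcripts.

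**Figure D3:**
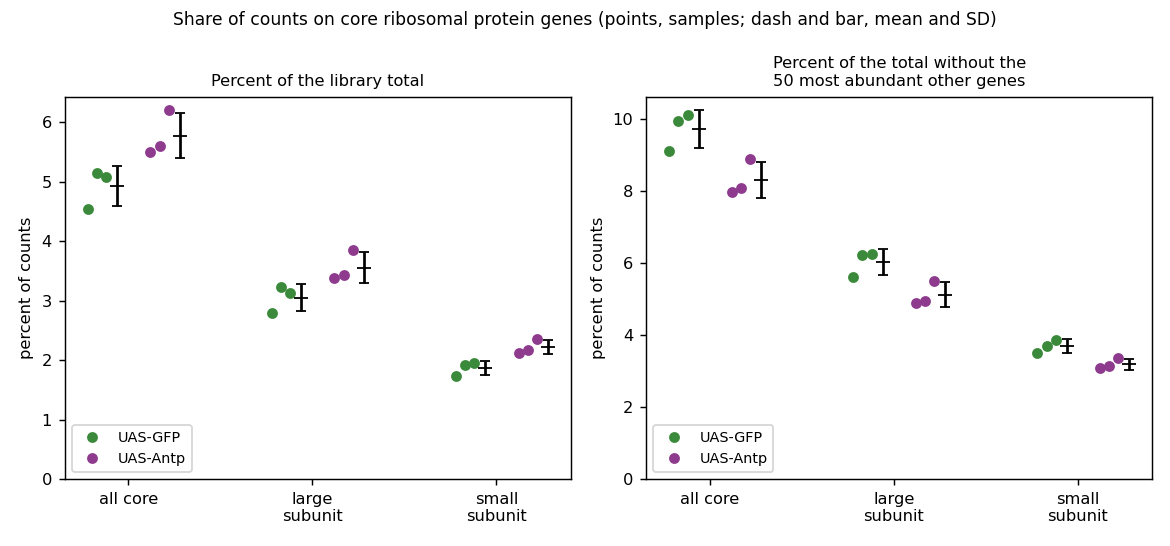
Percent of counts (y axis) on all core genes, large subunit genes and small subunit genes in each sample (points, with mean and SD beside them), out of the library total (left) and out of the total without the 50 most abundant other genes (right). UAS-Antp samples lie above UAS-GFP samples on the left (5.77% against 4.92% for all core genes) and below them on the right (8.31% against 9.72%).

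Large and small subunit genes had nearly the same medians. Their log2 fold changes with TMM scaling were -1.12 and -1.10, and both were 0.21 with library totals. With TMM scaling, 46 of 47 large and 31 of 31 small subunit core genes passed as lower, RpL11 being the exception, against 0 and 0 with totals. Large subunit genes held 3.05% ± 0.223 of the counts in the controls and 3.55% ± 0.260 under UAS-Antp (SD, n = 3). Small subunit genes held 1.87% ± 0.112 and 2.22% ± 0.119. The summed CPM per kb of exon of the large subunit over that of the small was 1.55, 1.68 and 1.57 with UAS-GFP and 1.55, 1.52 and 1.60 with UAS-Antp, so the ratios of the groups overlapped.

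Medians by chromosome lay close together too. The 13 on the X chromosome had a median log2 fold change of -1.07 and the 65 on autosomes one of -1.14, both with TMM scaling. By arm, the median was -1.19 over the 17 genes on 2L, -1.20 over the 17 on 2R and -1.11 over the 14 on 3L, and the 16 on 3R had the smallest change. Chromosome 4 carries a single core gene, RpS3A, at -1.44.

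Among themselves the core genes largely kept their order of abundance. Per kb of exon, TMM-scaled levels ran from 115 (RpL38) to 5434 CPM per kb (RpLP2) with UAS-GFP, with a median of 885, and from 43.6 to 2569 with UAS-Antp, with a median of 401. The rank correlation of the mean levels per kb between the groups was 0.97 across the 78 genes, which share the same libraries and are not independent replicates. Raw counts of a core gene in a sample ran from 3639 to 236614, so counting error was small beside the spread between samples.

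The most abundant per kb outside the paralog pairs were RpLP2, RpS27A and RpL27A. RpLP2 and RpLP1 encode the acidic proteins P2 and P1, which form the flexible stalk that recruits elongation factors, and RpLP0 encodes P0, which anchors them to the large subunit. RpLP2 stood at 2499, 3555 and 3794 CPM in the controls and 1692, 1207 and 1757 CPM under UAS-Antp. RpLP1 was at 1294, 1539 and 1303 CPM against 555, 474 and 783 CPM, and RpLP0 at 1157, 1053 and 1100 CPM against 486, 489 and 527 CPM. No UAS-Antp sample reached the lowest UAS-GFP sample for any of these stalk genes, and the 2 acidic ones varied more between samples than RpLP0 did.

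The log2 fold change of RpLP2 was -1.08 with TMM scaling and 0.23 with totals (SE 0.19, adjusted P = 0.000598 with TMM in edgeR's quasi-likelihood test). That of RpLP1 was -1.19, or 0.12 with totals (SE 0.18, adjusted P = 0.000205 with TMM). RpLP0 came to -1.14, or 0.18 with totals (SE 0.099, adjusted P = 3.69e-06 with TMM). These 3 values differed by less than the standard errors of RpLP1 and RpLP2.

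Some ribosomal proteins are made as fusions that are cleaved after translation. RpL40 and RpS27A carry ubiquitin at the amino end, and so also supply the cell with ubiquitin, while RpS30 carries a ubiquitin-like protein. RpS27A stood at 2079, 1910 and 2139 CPM in the controls and at 1017, 883 and 949 CPM under UAS-Antp. RpL40 was at 1155, 1017 and 1202 CPM against 515, 536 and 519 CPM, and RpS30 at 1562, 1464 and 2060 CPM against 948, 868 and 999 CPM. The groups did not overlap for any of them. Log2 fold changes with TMM scaling were -1.10 for both RpS27A (adjusted P = 7.98e-06) and RpL40 (adjusted P = 6.95e-06), and -0.85 for RpS30 (adjusted P = 0.000433), all in edgeR's quasi-likelihood test. With library totals they were 0.21, 0.22 and 0.47. RpS27A shares 35 bases of exon with Ip259 on the same strand.

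RpL27A, a core protein of the large subunit, was at 1915, 1957 and 2267 CPM in the controls and 1085, 946 and 1075 CPM under UAS-Antp, again without overlap. Its log2 fold change was -0.98 with TMM scaling (SE 0.11, adjusted P = 3.34e-05, edgeR's quasi-likelihood test) and 0.34 with totals. The least abundant core genes per kb outside the paralog pairs were RpL38, RpS21 and RpL28. RpL38 stood at 91.1, 134 and 124 CPM against 43.1, 37.1 and 52.5 CPM, and RpL28 at 487, 502 and 493 CPM against 204, 237 and 247 CPM. The groups were separate for both, with log2 fold changes of -1.39 (SE 0.17) for RpL38 and -1.11 (SE 0.11) for RpL28 with TMM scaling, and -0.082 and 0.21 with totals. RpL38 is known in mice for an effect on the translation of Hox mRNAs.

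The lowest log2 fold changes among core genes outside the paralog pairs were those of RpS21, RpL13 and RpL37A. RpS21 (chromosome 2L, positions 2856070 to 2857029 in dm6, plus strand) encodes a small subunit protein whose loss in flies is known to cause overgrowth of larval hematopoietic organs. It was at 147, 200 and 181 CPM in the controls and 47.0, 47.6 and 67.0 CPM under UAS-Antp. All UAS-Antp samples lay far below the lowest control. The log2 fold change was -1.71 (SE 0.17, adjusted P = 9.35e-06, edgeR's quasi-likelihood test with TMM scaling) and -0.39 with totals (adjusted P = 0.0646), the lowest of the core genes under both scalings.

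RpL13 (chromosome 2L, positions 9967313 to 9968645, plus strand) was at 841, 867 and 936 CPM against 255, 317 and 321 CPM. RpL37A (chromosome 2L, positions 5070957 to 5072055, plus strand) was at 662, 1048 and 843 CPM against 318, 233 and 357 CPM. Both were separate between the groups, with a wider spread for RpL37A. Their log2 fold changes were -1.57 and -1.49 with TMM scaling (adjusted P = 1.39e-06 and 8.17e-05, edgeR's quasi-likelihood test) and -0.25 and -0.18 with totals.

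At the other end stood RpL11, RpL9 and RpL21. RpL11 encodes a large subunit protein that, with RpL5 and the 5S rRNA, forms part of the central protuberance; in mammals this complex also binds the ubiquitin ligase MDM2. RpL11 was at 690, 887 and 1032 CPM in the controls and 489, 532 and 535 CPM under UAS-Antp. RpL9 was at 990, 1157 and 1344 CPM against 660, 578 and 756 CPM, and RpL21 at 832, 1026 and 1127 CPM against 612, 478 and 603 CPM. For all of them UAS-GFP 1 was the lowest control, and the groups still did not overlap. Log2 fold changes with TMM scaling were -0.75 for RpL11, -0.81 for RpL9 and -0.82 for RpL21, with standard errors of 0.14 each, and with totals they were 0.57, 0.51 and 0.50. RpL9 and RpL21 passed with TMM scaling (adjusted P = 0.000693 and 0.000665, edgeR's quasi-likelihood test), RpL11 did not, and RpL9 no longer passed with the upper quartile.

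To ask which members moved relative to the others, library sizes were set to the summed counts of the core genes. The median of all tested genes was then 1.26, while core genes ran from -0.63 to 0.35, and 63 of 78 lay within 0.25 of 0 on the log2 scale. A single member passed the threshold of 0.001 in edgeR's quasi-likelihood test, RpL7-like, which was higher, and 0 were lower. It lost this call, leaving 0, when any sample other than UAS-Antp 1 was left out. At this scaling 44.4% of all genes tested were higher and 8.31% lower. Before adjustment, 8 members were lower and 5 higher at a P under 0.05.

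At a looser adjusted P of 0.05, 11 members passed in this fit, 7 lower (12.1% of all genes) and 4 higher (65.1%). With each sample left out in turn, 5 to 12 passed at 0.05, with 5 without UAS-GFP 2 and 6 without UAS-Antp 2. Among those lower relative to the others were RpS21, RpL13, RpL13A, RpL41, RpS3A and RpS2, and higher were RpL11, RpS19a, RpL24-like and RpL7-like. Per 1000000 core counts, RpS21 was at 2009, 2613 and 2166 in the controls and 1309, 1363 and 1728 under UAS-Antp. RpL13 was at 11467, 11345 and 11223 against 7105, 9075 and 8266, and RpL11 at 9404, 11606 and 12378 against 13639, 15209 and 13783. These 3 genes were separate between the groups.

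Their log2 fold changes relative to the core were -0.63 for RpS21, -0.48 for RpL13 and 0.35 for RpL11, with adjusted P of 0.00334, 0.00464 and 0.0310 in edgeR's quasi-likelihood test. RpS21, RpL13, RpL24-like and RpL7-like stayed under 0.05 whichever sample was left out. RpL11 did not without UAS-GFP 1, UAS-GFP 2, UAS-Antp 2 or UAS-Antp 3, with an adjusted P of up to 0.108. Nor did RpL13A without UAS-GFP 1 or UAS-Antp 1, RpL41 without UAS-GFP 2, UAS-Antp 1 or UAS-Antp 2, RpS2 without UAS-GFP 2, UAS-Antp 2 or UAS-Antp 3, RpS3A without UAS-GFP 2, and RpS19a without UAS-GFP 2, UAS-GFP 3 or UAS-Antp 2. RpL13A, RpL41, RpS3A and RpS2 lay between -0.36 and -0.34. Of the 78 core genes, 15 had all UAS-Antp samples below all UAS-GFP samples on this scale, 12 had them above, and 51 overlapped. Among all tested genes, 13.1% were separate and lower and 67.4% separate and higher on the same scale.

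**Figure D4:**
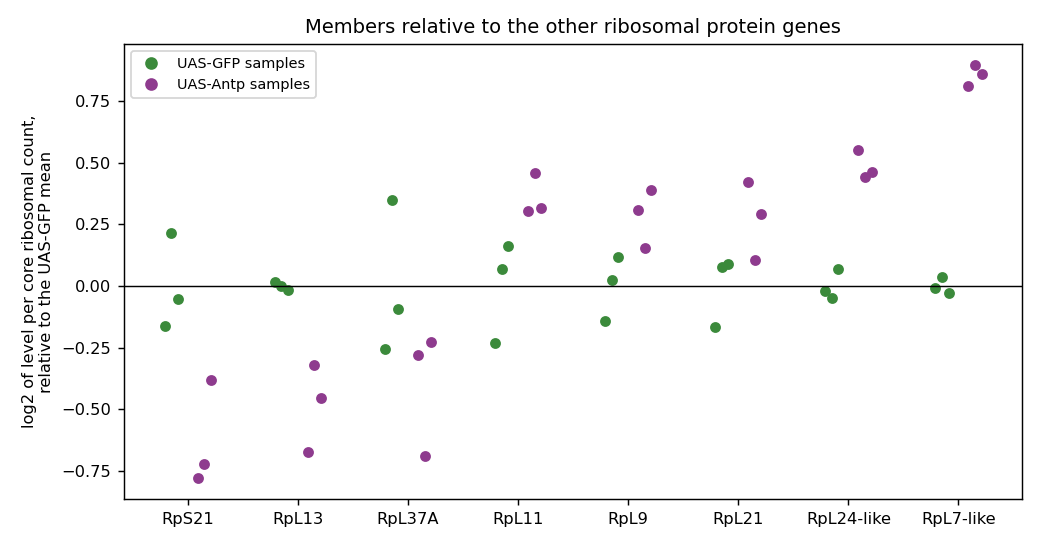
Level per core ribosomal count in each sample (y axis, log2 relative to the mean of the UAS-GFP samples) for the 3 lowest and 3 highest core genes outside the pairs and for RpL24-like and RpL7-like (x axis). RpS21 and RpL13 lie lower and RpL11, RpL9, RpL21, RpL24-like and RpL7-like higher in all 3 UAS-Antp samples, whereas for RpL37A the groups overlap.

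The symbols give 14 comparisons of a paralog with its major gene. In 6 of them both genes had counts in all 6 samples, so that a ratio could be taken within each library, where scaling has no effect. Other library effects can remain. Across core genes, exon length had a rank correlation with a gene's deviation in a sample of 0.36, -0.29 and -0.086 in the controls. Under UAS-Antp it was -0.26, 0.39 and -0.17. Paralogs can differ in exon length, as RpS14a (877 bases) and RpS14b (597) do. The part of length in the shares below was not tested. Counts were divided by exon length, and the share of the minor gene in the sum of both was taken. An exact two-sided permutation test over the 10 splits of 3 against 3 samples can reach a P of 0.1 at the least, so no pair could pass 0.05.

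RpS14a and RpS14b are neighbours on the X chromosome (positions 7933742 to 7934677 and 7934898 to 7935792, both on the plus strand), and encode the same small subunit protein of the platform. Only uniquely mapped reads were counted, so the split of reads between such near-identical copies is uncertain. The same may hold for the other pairs, whose sequences were not compared here. RpS14b made 25.0%, 38.4% and 32.4% of the pair in the controls and 33.0%, 29.8% and 31.6% under UAS-Antp. The UAS-Antp shares fell inside the range of the controls (exact permutation P = 1). In TMM-scaled CPM the genes had log2 fold changes of -1.07 (RpS14a) and -1.12 (RpS14b), with adjusted P of 7.85e-06 and 0.000609 in edgeR's quasi-likelihood test, against 0.25 and 0.19 with totals.

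RpS15Ab made 15.7%, 28.4% and 18.2% of the RpS15A pair with UAS-GFP and 18.3%, 15.7% and 21.6% with UAS-Antp, also overlapping (exact permutation P = 0.9). RpS15Aa itself had a log2 fold change of -0.99 with TMM scaling and 0.33 with totals. RpLP0-like, related to P0 but known in yeast as a factor of ribosome assembly in the nucleolus, made 2.06%, 2.78% and 3.39% against 3.55%, 2.39% and 2.63% (exact permutation P = 0.9). For these pairs UAS-GFP 2 or 3 held the highest control share, and no group stood apart.

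The other 3 pairs were separate between the groups, each with more of the minor gene with UAS-Antp. A ratio to a major gene resembles the scaling to the core genes. On that scale the median log2 fold change of all genes tested was 1.26, and 67.4% of them were separate and higher. RpL34a made 10.9%, 13.1% and 12.5% of its pair with RpL34b in the controls and 13.6%, 13.3% and 14.2% under UAS-Antp. The nearest samples of the groups differed by little, and the log2 ratio differed by 0.20 (exact permutation P = 0.1, the smallest possible, 0.2 after Benjamini-Hochberg adjustment over the 6 pairs). Without UAS-GFP 1 it differed by 0.11. Fitted singly, RpL34a and RpL34b had log2 fold changes of -1.05 and -1.24 with TMM scaling, and 0.27 and 0.076 with totals.

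RpL24-like is the relative of RpL24 that, in yeast, marks large subunits still being assembled before RpL24 takes its place. It lies on chromosome 3R at positions 11430740 to 11431582, minus strand. Its counts were 1529, 1252 and 1687 with UAS-GFP and 2980, 3132 and 2860 with UAS-Antp, and those of RpL24 26420, 20667 and 26309 against 27985, 38663 and 31446. RpL24-like thus made 8.65%, 9.02% and 9.5% of the pair in the controls and 14.8%, 11.7% and 13.0% with UAS-Antp. Every UAS-Antp sample exceeded every control, with a log2 ratio higher by 0.60 (exact permutation P = 0.1, adjusted 0.2). Fitted singly, RpL24-like had a log2 fold change of -0.61 with TMM scaling and 0.71 with totals, against -1.20 and 0.12 for RpL24.

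RpL7-like is the relative of RpL7 that corresponds to an assembly factor of the large subunit in yeast. It lies on chromosome 2L at positions 12056326 to 12058251, plus strand. Its counts were 641, 550 and 654 with UAS-GFP and 1479, 1785 and 1564 with UAS-Antp, and it made 1.20%, 1.46% and 1.40% of its pair against 2.70%, 2.71% and 2.92%. The groups were far apart beside their spread, with a log2 ratio higher by 1.06 (exact permutation P = 0.1, adjusted 0.2). Relative to the core genes, the median of all genes tested was 1.26, so this difference was not particular to RpL7-like. In TMM-scaled CPM it was close to level, at 16.1, 17.2 and 18.0 against 13.8, 14.3 and 15.5 CPM, a log2 fold change of -0.23, or 1.09 with totals, while RpL7 had -1.30, or 0.023 with totals. However, 1771 of its 1793 bases of exon are shared with CG34164 on the same strand, so the counts of these 2 genes cannot be told apart.

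The remaining 8 paralogs had too few counts for the test. RpS5b had 0, 4 and 4 counts in the controls and 0, 12 and 0 under UAS-Antp. RpS19b (6 counts), RpL22-like (5) and RpL10Aa (2) were seen in UAS-Antp 2 alone, and RpS28-like (2) in UAS-GFP 1 alone. RpS10a, RpS28a and RpL37b had 0 counts in all 6 samples, where the floor of 3 counts allows up to 0.0939 CPM, for counting error only. Their major genes RpS5a, RpS19a, RpL22, RpL10Ab, RpS28b, RpS10b and RpL37a had at least 16131 counts in every sample.

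RpS5b, RpS19b and RpL22-like are known for expression in the germ line of flies. UAS-Antp 2, which held most of their counts, also had more testis, eggshell and ovary markers above the floor than the other samples. It had 12 of 19 testis markers against 1 to 5 in the others, and 11 of 14 eggshell and ovary markers against 1 to 7. The testis markers aly, can and nht and the eggshell and ovary markers Cp16, nos and bcd were at 0 in all 6 samples. The eggshell and ovary marker osk had 6 counts in UAS-Antp 2 and 0 elsewhere. Summed testis markers were at 5.61 to 7.25 CPM in the controls and 12.4 to 13.5 CPM under UAS-Antp, but most of the difference lay in tomb, with 0 counts in all controls against 800, 687 and 789. Without tomb the sums were 6.04, 7.16 and 4.63 CPM under UAS-Antp, around the level of the controls. Summed eggshell and ovary markers were at 0.440 to 0.626 CPM in the controls and 3.26, 11.8 and 5.52 CPM under UAS-Antp. Vm32E made up all of the sum in UAS-Antp 1 and most of that in UAS-Antp 3, with 0 counts in all controls against 349, 498 and 474. Without Vm32E the sums were 0, 7.76 and 0.831 CPM, so that UAS-Antp 2 alone stood well apart. The part of other tissues in the paralog counts was not tested.

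**Figure D5:**
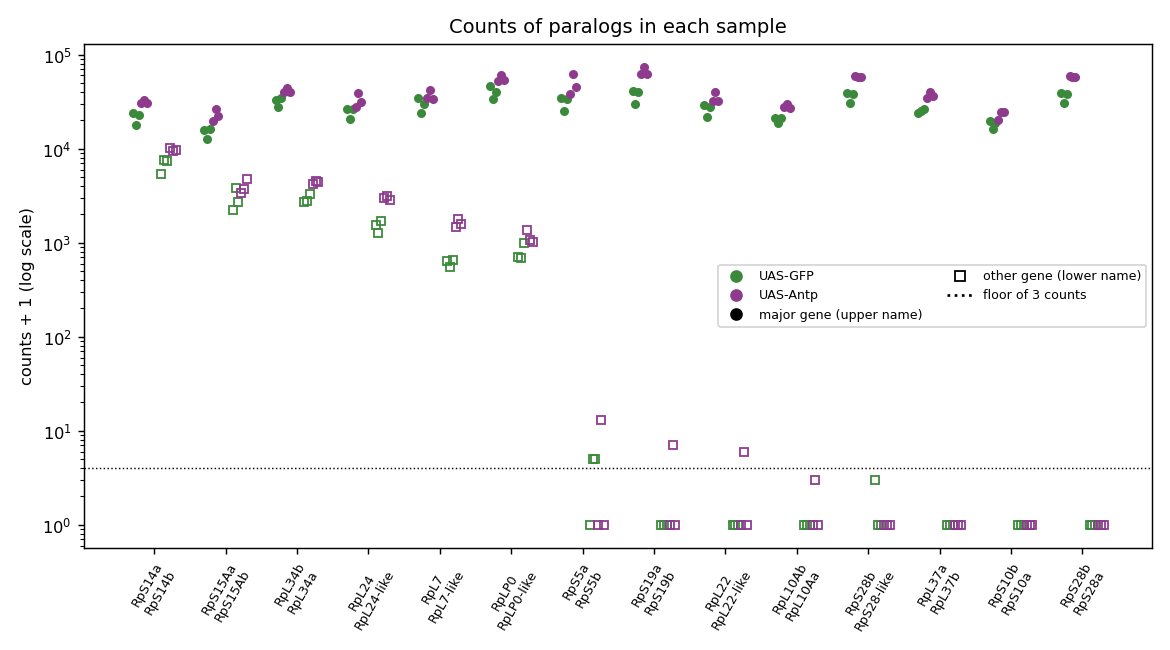
Counts plus 1 (y axis, log scale) of each paralog (open squares) and its major gene (filled circles) in the 6 samples, for the 14 comparisons (x axis), with the floor of 3 counts as a dotted line. In 6 comparisons the minor gene has 550 or more counts in every sample, and in the other 8 it has at most 12 in any sample against at least 16131 for the major gene.

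The major genes of these barely counted paralogs lay within the range of the other core genes. RpS10b, RpL22, RpL10Ab, RpL37a, RpS5a, RpS28b and RpS19a had log2 fold changes of -1.27, -1.20, -1.15, -1.08, -0.98, -0.92 and -0.78 with TMM scaling, and all 7 passed as lower, while with totals they lay between 0.047 and 0.54. RpS19a was at 1041, 931 and 1112 CPM in the controls and 582, 594 and 618 CPM under UAS-Antp. It was the core gene that passed as higher with totals (0.54, adjusted P = 0.000366, edgeR's quasi-likelihood test). RpL22 shares 377 of 1100 bases of exon with the long noncoding RNA gene CR42491 on the same strand.

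Genes of the wider translation machinery were set beside them. Their counts below are to be read against all genes tested, of which 19.3% were lower and 16.3% higher with TMM scaling, and 7.18% lower and 52.1% higher with totals. Of 13 elongation factors and ribosome-bound proteins, 11 were lower, 0 higher and 2 did not pass, with a median log2 fold change of -1.27 with TMM scaling and 0.049 with totals, and 0 had an unadjusted P under 0.05 in the higher direction. sta (the small subunit protein SA) and Rack1, which sits on the small subunit and scaffolds signalling proteins, belong to the ribosome but not to the RpL and RpS names. They had -1.16 each with TMM scaling (adjusted P = 3.14e-06 and 5.8e-06, edgeR's quasi-likelihood test), and 0.16 each with totals, close to the core median.

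The elongation factor eEF1alpha, which delivers aminoacyl-tRNA, is encoded by 2 genes in flies. eEF1alpha2 had 725437, 414124 and 596662 counts in the controls and 208504, 204767 and 184066 with UAS-Antp. eEF1alpha1 had 36517, 30641 and 33811 against 52963, 59140 and 42100. Log2 fold changes were -3.13 for eEF1alpha2 and -1.02 for eEF1alpha1 with TMM scaling, and -1.81 and 0.30 with totals, so that eEF1alpha2 was lower under both and far below the core genes.

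Initiation factors had a smaller median change. Of 34 tested of 42 listed, 23 were lower, 0 higher and 11 did not pass with TMM scaling, with a median of -0.79, while with totals 0 were lower and 16 higher, near the 52.1% of all genes that were higher. Among those that passed with TMM scaling, eIF2beta, a subunit of the factor that brings the initiator tRNA, was lowest at -1.72 (adjusted P = 2.44e-06) and eIF3a highest at -0.62 (adjusted P = 0.000558), or -0.40 and 0.69 with totals. In the higher direction 2 had an unadjusted P under 0.05, and DESeq2 called 1. The largest change was that of eIF4E6, which did not pass with TMM scaling. It had 0 counts in all controls against 96, 42 and 66 (log2 fold change 8.53).

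Of 37 genes listed under RNA polymerase I and nucleolar assembly, most of which make or process rRNA, 11 were lower and 0 higher. The other 26 did not pass, and of all genes tested 19.3% were lower. The median of the list was -0.65 with TMM scaling and 0.66 with totals. Fib, the methyltransferase of box C/D snoRNPs, was lowest, with 1181, 924 and 1088 counts against 659, 689 and 723, a log2 fold change of -2.23 (SE 0.14, adjusted P = 3.47e-07, edgeR's quasi-likelihood test) and -0.91 with totals. Non1 was the highest of those that passed, at -0.75, or 0.57 with totals. In the higher direction 3 had an unadjusted P under 0.05, and DESeq2 called 2. Among the 3 was Rrp1 (log2 fold change 1.39 with TMM scaling), which was listed by its symbol without a check of its function.

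The genes of mitochondrial ribosomal proteins had larger negative log2 fold changes. All 73 were lower with TMM scaling, from -3.68 (mRpL42) to -1.35 (mRpS18A), with a median of -2.47, and 55 of them were still lower and 0 higher with totals, with a median of -1.15. With TMM scaling, 0 had an unadjusted P under 0.05 in the higher direction, and DESeq2 called 0. mRpL42 had 5792, 5575 and 6430 counts against 1365, 1523 and 1393. Their share of all counts was 0.866% ± 0.0662 with UAS-GFP and 0.419% ± 0.0326 with UAS-Antp (SD, n = 3), whereas that of the core cytosolic genes was 4.92% and 5.77%.

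Of 14 known regulators of ribosomal protein genes or of translation, 6 were lower, 2 higher and 6 did not pass, with a median of -0.24 with TMM scaling and 1.07 with totals. Xrp1, a bZIP protein that is known to be induced by loss of ribosomal protein gene copies, had 84307, 64432 and 77220 counts in the controls and 43744, 43568 and 32920 with UAS-Antp. Its level was thus lower under both scalings, at -2.53 with TMM (SE 0.12, adjusted P = 4.26e-08, edgeR's quasi-likelihood test) and -1.21 with totals. Its partner Irbp18 had -0.92 with TMM scaling (adjusted P = 0.000714) and 0.40 with totals, and Myc, which raises ribosomal gene expression, -1.42 (adjusted P = 0.000435) and -0.10.

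Thor, the translational repressor 4E-BP that binds eIF4E, moved the other way. It had 124, 161 and 197 counts in the controls and 46809, 60404 and 45042 with UAS-Antp. Its log2 fold change came to 6.66 with TMM scaling (SE 0.22, adjusted P = 5.63e-09, edgeR's quasi-likelihood test) and 7.98 with totals. Trf2, a TBP relative that is known to act at ribosomal protein promoters in flies, had 4053, 2863 and 2926 against 21212, 19250 and 14802 counts, or 0.88 with TMM scaling (adjusted P = 0.000364) and 2.19 with totals. M1BP and Dref, which bind core promoters of housekeeping genes, did not pass with TMM scaling (0.19 each, adjusted P = 0.265 and 0.243) and stood at 1.5 and 1.51 with totals.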

How the data were processed

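Per the labels, polyA RNA was made into libraries with a stranded kit and 15 PCR cycles. The authors mapped reads to dm6 with Subread and deposited counts of uniquely mapped reads per gene, from featureCounts on annotation release 6.42. A deposited table of the authors' comparison (fold changes and P values) was used for gene symbols alone. The symbols of 29 genes came from a name table.

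Counts were filtered with filterByExpr, scaled by TMM and tested in edgeR 4.0.16 (R 4.3.3) by the quasi-likelihood test, at a Benjamini-Hochberg adjusted P of 0.001 over the whole table tested. The study used DESeq2 (1.34); DESeq2 1.42.0 was an alternative here. The code was tested on simulated data. CPM are TMM-scaled; levels per kb were divided by the exon length in the table. Coordinates are those of the count table. PCR duplicates were not removed by molecular identifiers, so intervals and floors cover counting error only.

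Genes named with values were both genes of each paralog comparison, the stalk and fusion genes, the 3 highest and 3 lowest log2 fold changes and the 3 most and 3 least abundant per kb outside the pairs, 8 set genes (sta, Rack1, Xrp1, Irbp18, M1BP, Dref, Trf2 and Myc), and the extremes of each list that passed. RpS19a as the core gene called with totals, the members passing at 0.05 relative to the core, eEF1alpha1 and the overlapping genes were named after their values were seen. Members and lists were chosen with earlier results of these data known. nop14 and the testis marker CdlC2 matched no symbol. A member that was tested and counted with the others is not reported here by name.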

Additional observations from a re-analysis of the deposited data

How the results depend on the processing

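The signs of most members turned with library totals. Scaled by library totals, 3 members were called (0 lower, 3 higher), and the medians of all core, large and small subunit genes became 0.21, 0.21 and 0.21. The same scaling gave 0.023 for RpL7, 0.047 for RpS10b, 0.076 for RpL34b, 0.093 for RpS15Ab, 0.12 for RpL24, RpL22 and RpLP1, 0.16 for sta and Rack1, 0.17 for RpL10Ab, 0.18 for RpLP0, 0.19 for RpS14b, 0.21 for RpS27A and RpL28, 0.22 for RpL40, 0.23 for RpLP2, 0.24 for RpLP0-like and RpL37a and 0.25 for RpS14a. It gave 0.27 for RpL34a, 0.33 for RpS15Aa, 0.34 for RpS5a and RpL27A, 0.39 for RpS28b, 0.40 for Irbp18, 0.47 for RpS30, 0.50 for RpL21, 0.51 for RpL9, 0.54 for RpS19a, 0.57 for RpL11, 0.71 for RpL24-like and 1.09 for RpL7-like. eEF1alpha1, Non1 and eIF3a also changed sign. Lists then had 1 lower and 15 higher (RNA polymerase I and nucleolar assembly), 1 and 1 (elongation), 1 and 10 (regulators) and 0 and 16 (initiation), and DESeq2 gave 2 and 1 higher for the RNA polymerase I and initiation lists. Scaling to the core genes, also a comparison of its own and set beside the TMM counts after seeing the data, left 1 called (0 lower, 1 higher). Without the 50 most abundant other genes, the difference in core share was -1.41 points instead of 0.846.

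Without a filter on low counts 83 members passed, with at least 10 counts in 3 samples 79, and with DESeq2 83. Leaving out each sample in turn left 70 to 81 called lower, with core medians of -1.19 to -1.09; 10 of the 79 were lost in at least 1 of these fits. Relative to the core genes, 11 passed at 0.05, and 0 to 1 at 0.001 when each sample was left out: RpL7-like passed without UAS-Antp 1 and was lost, with 0 called, without any of the other 5 samples. At 0.05 it was 5 to 12, a setting chosen after seeing the data, as were the marker sums without tomb or Vm32E. The log2 ratio of RpL34a to RpL34b ran from 0.11 to 0.27, those of RpL24-like and RpL7-like from 0.50 to 0.69 and 0.98 to 1.12. Log2 ratios of the overlapping pairs changed sign on leaving out samples, from -0.13 to 0.24 for RpLP0-like, -0.25 to 0.20 for RpS14b and -0.40 to 0.15 for RpS15Ab. In pairs with 0 counts no log ratio could be taken. No paired analysis was possible because the labels number the samples 1 to 3 and 4 to 6, so that no number is shared. Motifs in promoters were not run here.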
